A study of Arabidopsis thaliana with 24 samples.

Results

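Seedlings of Arabidopsis thaliana, the small cress used as a model plant, were compared between a sucrose medium and soil. Set ATGE_97 held the green parts of Col-0 seedlings raised on 0.5x GM, a growth medium, with 5% sucrose at 20 °C. Set ATGE_7 held the same tissue of Col-0 seedlings from soil at 23 °C and 65% relative humidity. All plants were wild type and grew in continuous light, and a humidity is stated only for soil. The samples were chosen by their titles, which gave 3 arrays in each set, 6 of the 24 arrays of the series, and 22746 of its 22810 probe sets, all but the 64 manufacturer's controls. Set ATGE_96 came from the same medium at the same temperature with no sucrose named, and serves below as a point of reference. A note on sets 96 and 97 compares the look of most of their plants with that of soil plants 7 days old, the age it gives for set 7. The remaining 15 arrays are whole plants from soil (ATGE_22, ATGE_23 and ATGE_24) and further seedlings from the sugar-free medium (ATGE_100) and the sucrose medium (ATGE_101).

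Sucrose is the sugar that plants export from their leaves, and it is also a signal: plant cells that run short of sugar break down proteins, amino acids and lipids, whereas cells well supplied with it store starch and can form anthocyanins, the red pigments of the flavonoid pathway. Sugar in a medium therefore changes one difference between a dish and soil and leaves others. Soil and medium here differ in substrate, in temperature, in the stated humidity and in sugar together, and these cannot be told apart in the comparison with soil. The question was what still differs from soil when sugar is supplied.

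Each value is the MAS5 intensity of a probe set, a group of short probes for 1 transcript, and measures fluorescence of labelled RNA on an array. Differences are given in log2 of the intensity after adding 7, with their standard error, and a probe set was called when its p from limma, adjusted by the Benjamini-Hochberg method over all 22746 probe sets, was under 0.05. Adding 7 shrinks the difference of weak probe sets, so a fold below is on that scale. Nothing in the labels states that replicate arrays were separate cultures, and the p-values then measure only the spread between these samples, which may be technical.

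Sucrose-grown and soil seedlings differed in 10623 probe sets, 46.7% of those tested. Of these, 5229 (23.0%) were higher on the sucrose medium and 5394 (23.7%) lower, and the median difference over all probe sets was -0.0023. Arrays of the sets did not overlap in 12796 probe sets (56.3%). Large differences were more often upward. At least 2-fold higher were 1936 probe sets (8.51%) and at least 2-fold lower 1052 (4.62%), while 194 (0.853%) were at least 8-fold higher and 15 (0.0659%) at least 8-fold lower. The sugar-free medium differed from the same soil arrays in 11564 probe sets (50.8%), with 4905 higher (21.6%) and 6659 lower (29.3%), of which 2151 were at least 2-fold higher (9.46%) and 1888 at least 2-fold lower (8.30%). Between the media 4625 probe sets were called (20.3%), 2906 higher with sucrose (12.8%) and 1719 lower (7.56%). Of these, 348 were at least 2-fold higher with sucrose (1.53%) and 310 at least 2-fold lower (1.36%). The comparisons share arrays, so their values stand side by side below and no overlap between them is given.

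Correlations between arrays, over all probe sets on the log2 scale, describe the same order: 0.990 on average within set 97, 0.987 within set 7, 0.972 between the media, 0.913 between sucrose medium and soil, and 0.885 between sugar-free medium and soil. Some array measures differed between the sets as well. The ratio of 3' to 5' probes for GAPDH was 0.897 to 0.984 on the soil arrays and 1.25 to 1.41 on the sucrose arrays, that for ubiquitin was 3.67 to 4.35 against 2.48 to 2.57, and the brightest probe set read 5655 to 6741 against 4273 to 4775. The ratio for actin was 5.36 to 6.59 on soil arrays and 3.50 to 4.22 on sucrose arrays. The manufacturer's control BioB read 88.2 to 111.8 against 45.7 to 63.6. The median intensity was 36.1 to 36.4 on soil arrays and 39.7 to 40.6 on sucrose arrays. Their part in the results was not tested.

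**Figure D1:**
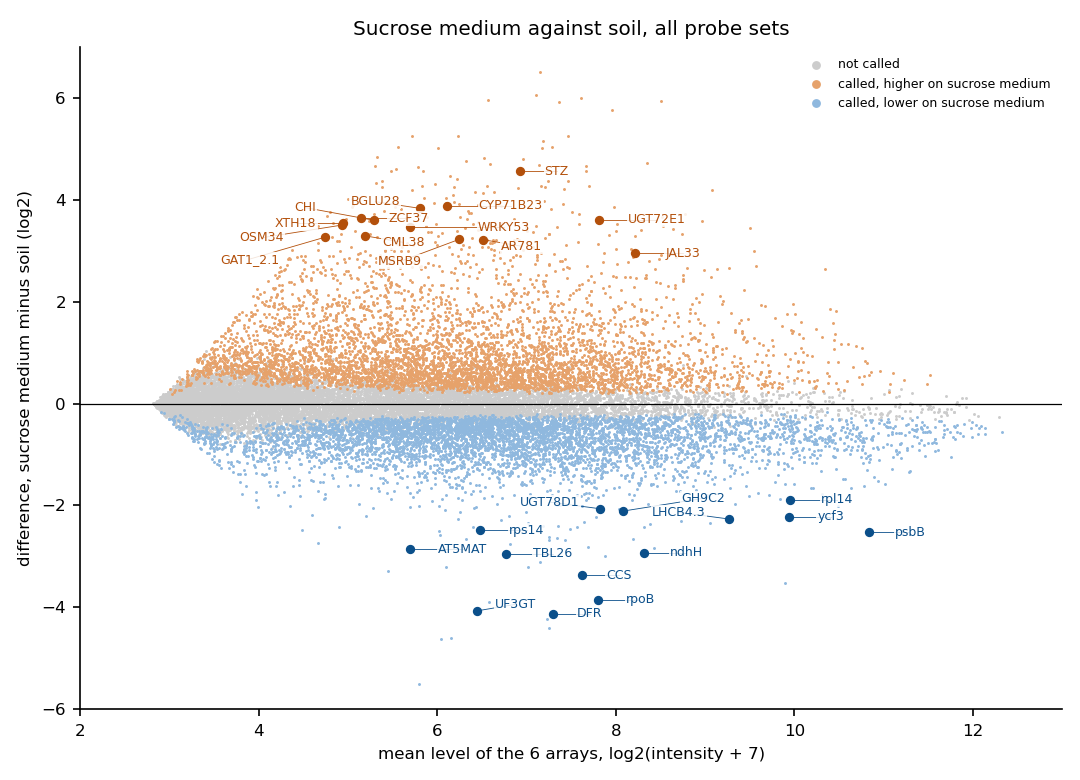
Each point is 1 of 22746 probe sets, with its mean level over the 6 arrays on the x axis and its difference, sucrose medium minus soil, on the y axis, both in log2 after adding 7. Colours mark the 5229 probe sets called higher and the 5394 called lower, and the labelled points are the 14 named genes with the highest and the 14 with the lowest differences, from STZ at 4.56 to DFR at -4.12.

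Among the genes with the highest differences were several known to answer touch, wounding, elicitors or pathogens. STZ (AT1G27730), a zinc finger repressor also called ZAT10, read 16.6, 17.4 and 20.4 on the soil arrays and 589, 597 and 572 on the sucrose arrays. All 3 sucrose arrays lay far above all 3 soil arrays, a difference of 4.56 ± 0.20 (adjusted p = 3.2e-13), or 23.6-fold. Without sugar it read 462, 452 and 429, and the difference between the media was not called (0.38, adjusted p = 0.19). WRKY53 (AT4G23810), a transcription factor of leaf senescence and defence, read 10.1, 10.9 and 5.38 on soil against 173, 165 and 157 with sucrose, a difference of 3.46 ± 0.27 (adjusted p = 2.3e-09). CML38 (AT1G76650), a calmodulin-like calcium sensor, read 3.57, 7.62 and 3.11 against 109, 104 and 106, a difference of 3.29 ± 0.32 (adjusted p = 3.7e-08). In each of these genes the soil arrays were near the floor of the measurement and the sucrose arrays well above it.

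The list of rapid touch, wound and elicitor genes had 19 members on the array. Of these 15 were higher on the sucrose medium, where 23.0% of all probe sets were. At least 2-fold higher were 12, where 8.51% of all were, none was lower, and 4 were not called, with a list median of 1.746 beside -0.0023 over all probe sets. Against the same soil arrays the sugar-free medium had 14 higher and 1 lower, with a median of 2.53. The list holds 3 related ubiquitin ligases that restrain immune signalling: PUB23 was higher by 2.87, PUB22 by 2.32 and PUB24 by 1.746. WRKY6 and WRKY22, further transcription factors of defence, were higher by 2.82 and 2.56. Their differences on the sugar-free medium were 4.61 for WRKY6 and 3.60 for WRKY22. WRKY20, CML37, WRKY42 and CML43 were the members not called.

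Defence proteins formed a second block. All 7 measured genes of the salicylate and pathogen defence list were higher, each at least 2-fold, with a median of 1.99, where 8.51% of all probe sets were at least 2-fold higher. OSM34 (AT4G11650), an osmotin-like antifungal protein, read 4.16, 1.18 and 1.08 on soil and 80.4, 113 and 95.7 with sucrose, a difference of 3.5 ± 0.30 (adjusted p = 6.3e-09). The gene listed as CHI is here AT2G43570, a chitinase-like protein and not the chalcone isomerase of the same abbreviation. It read 1.26, 1.71 and 12.7 on soil and 150, 121 and 118 with sucrose, a difference of 3.60 ± 0.41 (adjusted p = 3.0e-07). The last of its soil arrays stood well above the other soil arrays and still far below every sucrose array. RING1, a ubiquitin ligase of programmed cell death, was higher by 1.99 ± 0.20, and BIK1, a kinase at immune receptors, by 1.14 ± 0.15.

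Among probe sets known only by a locus, the 4 highest that were called with no overlap of arrays had still higher differences. AT5G64120 read 18.9, 21.7 and 12.6 on soil and 1617, 1649 and 1427 with sucrose, a difference of 6.0 ± 0.27 (adjusted p = 5.8e-13). AT2G43620 read 11.7, 11.9 and 19.9 against 1313, 1278 and 1252, a difference of 5.92 ± 0.13 (adjusted p = 2.0e-17). AT4G12500 and AT4G12490 were higher by 5.96 ± 0.33 and 5.75 ± 0.32. In all 4 the soil arrays were below 36 and the sucrose arrays above 700.

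Further genes at the top of the ranking work in metabolism. UGT72E1 (AT3G50740), which adds glucose to monolignol aldehydes, read 62.7, 47.6 and 62.4 on soil and 770, 770 and 782 with sucrose, a difference of 3.61 ± 0.15 (adjusted p = 2.7e-13). CYP71B23 (AT3G26210), a cytochrome P450, read 9.41, 11.3 and 12.1 against 261, 253 and 256, a difference of 3.88 ± 0.20 (adjusted p = 4.8e-12). MSRB9, a methionine sulfoxide reductase that repairs oxidised proteins, was higher by 3.22 ± 0.23. ZCF37 and AR781 were higher by 3.64 ± 0.25 and 3.22 ± 0.19. Between the media, ZCF37 differed by -0.0024 (adjusted p = 1.0).

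**Figure D2:**
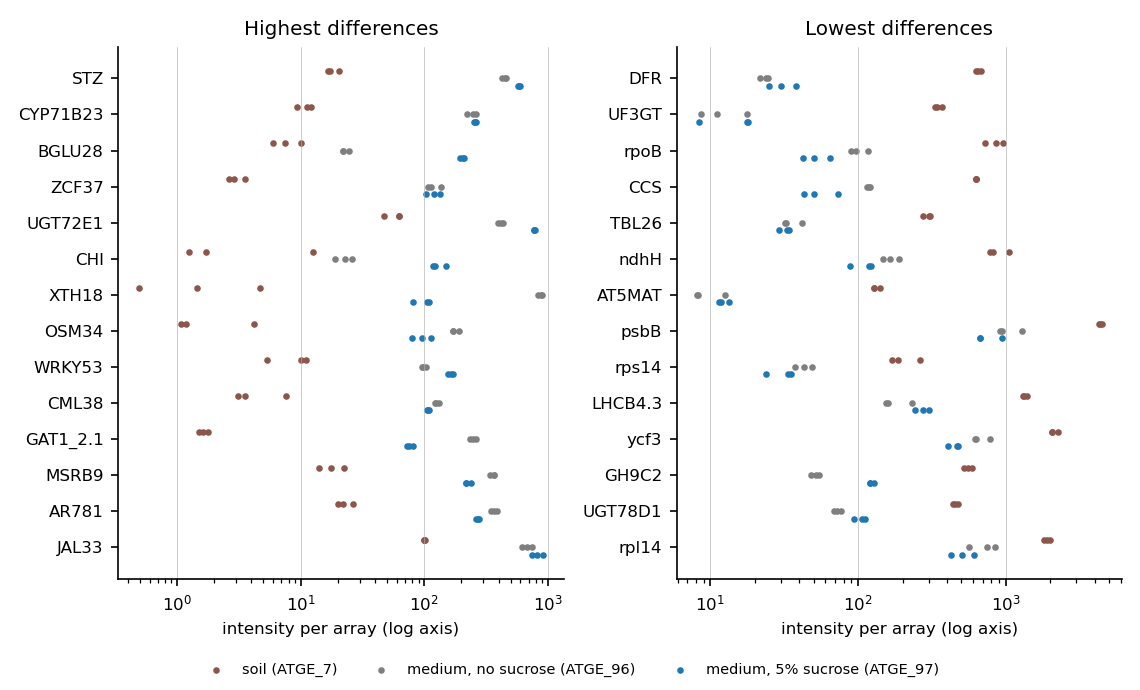
Each point is the intensity of 1 array on a log axis for the 14 genes with the highest and the 14 with the lowest differences between sucrose medium and soil, with soil, sugar-free and sucrose arrays in separate colours. The 28 genes were chosen so that soil and sucrose arrays do not overlap, as in 56.3% of all probe sets. Between the media 15 of the 28 were called, where 20.3% of all probe sets were. Examples are XTH18 (871 without sugar, 98.8 with it) and BGLU28 (22.9 and 204). The choice of the 28 used the same sucrose arrays, so this count is a description only.

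The families of these single genes held members called in both directions. Of 24 cytochromes P450 on the array with a symbol, 10 were higher (41.7%, beside 23.0% of all probe sets) and 1 lower (CYP78A9, -0.71), with a list median of 0.32. The members called higher all belonged to the CYP71B group, whose genes are close relatives, and short probes may not always separate them: CYP71B22 was higher by 2.33, CYP71B26 by 1.71 and CYP71B29 by 1.53. Of 47 UDP-glycosyltransferases, enzymes that attach sugars to small molecules, 19 were higher (40.4%) and 9 lower (19.1%, beside 23.7% of all probe sets), with a median of 0.26. UGT73B5 and UGT76B1 were higher by 2.5 and 2.43. UGT76E11 was lower, at -1.28. Of 16 genes of glutathione transfer and detoxification, 6 were higher (37.5%) and 2 lower (12.5%). The abundant GSTU20 read 1548, 1658 and 1695 on soil against 790, 705 and 710 with sucrose (-1.15 ± 0.12, adjusted p = 8.8e-08).

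Genes of the ER body, a compartment of the endoplasmic reticulum in seedlings and roots that stores beta-glucosidase against herbivores, were higher on the sucrose medium. PYK10, its main beta-glucosidase, read 750, 784 and 707 on soil and 2705, 2746 and 2482 with sucrose, a difference of 1.81 (adjusted p = 1.9e-05). NAI2, a protein needed for the body to form, read 157, 141 and 139 against 596, 557 and 549, a difference of 1.91 (adjusted p = 8.1e-11). NAI1 (AT2G22770), the transcription factor that drives both, was higher by 1.94 ± 0.16 and read 69.7 on average on either medium against 13.1 on soil. Sugar-free and sucrose values of the 3 genes were close, with differences from soil of 1.60, 2.02 and 1.93 without sugar.

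Jacalin-type lectins, some of which bind to PYK10, were higher as well. JAL33 (AT3G16450) read 100, 98.9 and 101 on soil and 921, 816 and 740 with sucrose, a difference of 2.95 ± 0.28 (adjusted p = 2.2e-08). JAL34 and JAL22 were higher by 2.06 ± 0.14 and 1.91 ± 0.17. In the whole list of beta-glucosidases and ER body genes, 11 of 26 were higher (42.3%, beside 23.0% of all probe sets) and 4 lower (15.4%, beside 23.7%), with a median of 0.12. BGLU47 was the lowest, at 84.1, 64.9 and 69.9 on soil against 13.1, 18.4 and 19.0 with sucrose (-1.75 ± 0.18).

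In the list of jasmonate and wound genes 8 of 15 were higher (53.3%, beside 23.0% of all probe sets) and 2 lower (13.3%, beside 23.7%), with a median of 0.96. The higher ones were the lectins just given, the defensins PDF1.4 (2.77 ± 0.17), PDF1.2b and PDF2.1, the thionin THI2.2 and OPCL1, an enzyme of jasmonate synthesis. PDF1.2, the usual reporter of jasmonate defence, differed by 0.87 and was not called. The 2 lower ones were JMT, which methylates jasmonate (-1.78 ± 0.26), and MYC4, a transcription factor of the jasmonate response (-0.94 ± 0.15).

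Every autophagy gene with a named probe set was higher. Autophagy is the pathway by which cells enclose their own contents and recycle them in the vacuole, and ATG8 is the small protein that decorates the enclosing membrane. All 10 listed genes were called higher, 9 of them at least 2-fold (8.51% of all probe sets were), with a median of 1.36, and 9 of the 10 are ATG8 genes, so they may share some probe signal. ATG8E (AT2G45170) read 34.5, 37.8 and 40 on soil and 316, 321 and 340 with sucrose, a difference of 2.90 ± 0.18 (adjusted p = 6.3e-11). ATG8H was higher by 2.13 ± 0.12, the gene listed as APG8H (AT3G15580) by 1.86 ± 0.10, ATG8B by 1.66 ± 0.09 and ATG8F by 1.55 ± 0.11. The exception in size was ATG3, an enzyme that attaches ATG8 to lipid, at 0.20 (adjusted p = 0.044), which lost its call under 7 of the 14 settings tried below.

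The list median was 1.35 on the sugar-free medium against the same soil arrays. Between the media only ATG8E was called, at -0.55 (adjusted p = 0.036), with 399, 474 and 577 without sugar. For APG8H the difference between media was 0.01 (adjusted p = 0.96), and for ATG8F it was -0.08 (adjusted p = 0.71).

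Of 7 senescence-associated genes and proteases 6 were higher (85.7%, beside 23.0% of all probe sets) and 1 lower (14.3%, beside 23.7%), with a median of 1.36. The higher members include the proteases DELTA-VPE (1.36) and BETA-VPE (0.72), so the count is not one of senescence genes alone. GAMMA-VPE, a vacuolar protease that processes and activates other proteins, read 212, 200 and 204 on soil and 699, 705 and 690 with sucrose, a difference of 1.73 ± 0.12 (adjusted p = 3.7e-10). SAG101, a lipase-like protein of senescence and immunity, was higher by 1.55. SAG29, a sugar transporter also called SWEET15, was lower at 82.2, 75.2 and 73.1 against 30.9, 36.6 and 31.7 (-1.07 ± 0.43, adjusted p = 0.0496), and its call was lost when any single array was left out. The error of the main fit also holds the spread of sets not compared here. Over the 14 other settings the adjusted p of SAG29 ran from 0.000135 to 0.165.

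Genes known for sugar starvation stayed above soil on the sucrose medium, at smaller differences than without sugar. Of 6 measured genes 5 were higher (83.3%, beside 23.0% of all probe sets) and 1 lower (16.7%, beside 23.7%), with a median of 0.86, beside 1.53 on the sugar-free medium. MCCA (AT1G03090), a subunit of the methylcrotonyl-CoA carboxylase that degrades leucine, read 87.9, 81.1 and 82.1 on soil, 784, 763 and 815 without sugar and 189, 183 and 199 with sucrose. The sucrose arrays lay above soil (1.12 ± 0.10, adjusted p = 1.4e-08) and below the sugar-free arrays (-2.01, adjusted p = 4.3e-11). IVD, which acts in the same breakdown, was higher than soil by 1.55 ± 0.11 with sucrose and by 2.95 without. ETFQO passes the electrons of that breakdown to the respiratory chain. Of the 5 higher genes it was closest to soil, at 0.35 ± 0.08 with sucrose and 1.53 without.

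HIS1-3, a linker histone induced by drought, did not follow the sugar: it was higher than soil by 1.28 with sucrose and 1.40 without, and the media differed by -0.13 (adjusted p = 0.73). D2HGDH, another enzyme of amino acid breakdown, was the lower member at -0.32 ± 0.10.

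Of 23 starch and sugar genes 7 were higher (30.4%) and 6 lower (26.1%), near the 23.0% and 23.7% of all probe sets, with a median of 0.06. With quantile normalization 4 were higher and 6 lower, with a median of -0.08. SWEET16 (AT3G16690), a sugar carrier of the vacuole membrane, read 21.1, 24.6 and 21.7 on soil and 134, 151 and 135 with sucrose, a difference of 2.32 ± 0.15 (adjusted p = 1.3e-10), and 2.48 without sugar. The cell wall invertase cwINV6 and the alpha-amylase AMY1 were higher by 1.33 and 0.97, and neither reached that difference without sugar (0.46 and -0.09). APL3, a subunit of the enzyme that makes the precursor of starch, was lower than soil at 37.2, 38.9 and 31.7 against 73.1, 68.5 and 55.5 (-0.76 ± 0.16), and lower still without sugar (-1.81). DPE1, which acts in starch breakdown, was lower at -0.87 ± 0.13 and the vacuolar carrier SWEET2 by -0.81 ± 0.17, and TMT2 was lower at -0.57.

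Of the genes that sucrose changed most on the medium, some stayed away from soil and some came close to it. Others moved further from soil or to its other side. XTH18 (AT4G30280), a wall enzyme that cuts and rejoins xyloglucan, read 4.68, 1.44 and 0.487 on soil, 902, 827 and 884 without sugar, and 110, 105 and 81.5 with sucrose. The sucrose arrays lay below the sugar-free arrays (-3.06) and still above soil (3.54 ± 0.39, adjusted p = 2.1e-07). EXLA1, an expansin-like wall protein, was at 20.7 on average on soil, 784 without sugar and 199 with it, and B120, a receptor-like kinase, at 6.25, 116 and 26.2. ICL (AT3G21720) encodes isocitrate lyase, of the glyoxylate cycle by which seedlings turn stored oil into sugar. It read 0.702, 0.846 and 0.794 on soil, 146, 135 and 111 without sugar, and 24, 38.6 and 25 with sucrose (2.2 ± 0.12 above soil, adjusted p = 6.8e-12).

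CCR2 (AT1G80820), a cinnamoyl-CoA reductase of lignin synthesis, came closest to soil in this direction. It read 0.963, 0.590 and 0.774 on soil, 31.9, 43.1 and 34.5 without sugar and 8.35, 2.11 and 4.74 with sucrose (0.60 ± 0.23, adjusted p = 0.034). All these sucrose values are low, and the call was lost in 6 of 14 alternative settings.

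In the other direction BGLU28 (AT2G44460), a glucosidase known to rise when sulfur is short, read 7.45, 10.1 and 6.01 on soil, 22.1, 22.2 and 24.5 without sugar, and 193, 206 and 212 with sucrose. Its difference from soil was 3.83 ± 0.14 with sucrose (adjusted p = 3.4e-14) and 1.02 without, so sucrose took it further from soil. ChiC, a class V chitinase, was at 21.4 on average on soil, 38 without sugar and 124 with it, and SAL2, a relative of the nucleotidase SAL1, at 7.79, 7.01 and 47.4. GH9B8 (AT2G32990), a cellulase-like wall enzyme, read 50.6, 55.0 and 45.2 on soil, 14.4, 11.3 and 7.26 without sugar and 48.7, 50.9 and 45.9 with sucrose. The sucrose and soil arrays overlapped, with a difference of -0.04 and a 95% interval from -0.35 to 0.26, while the sugar-free arrays lay below soil (-1.69).

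EXPA8 (AT2G40610), an expansin that loosens cell walls, lay on opposite sides of soil on the media. It read 97.6, 103 and 104 on soil, 56.3, 64.8 and 64.5 without sugar and 297, 329 and 278 with sucrose. Its difference from soil was 1.5 ± 0.20 with sucrose (adjusted p = 2.0e-06) and -0.66 without (adjusted p = 0.0075). TUB1, a beta-tubulin, was at 55.5 on average on soil, 25.4 without sugar and 72.6 with it, and its small difference from soil with sucrose (0.35 ± 0.14, adjusted p = 0.039) lost its call in 7 settings.

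**Figure D3:**
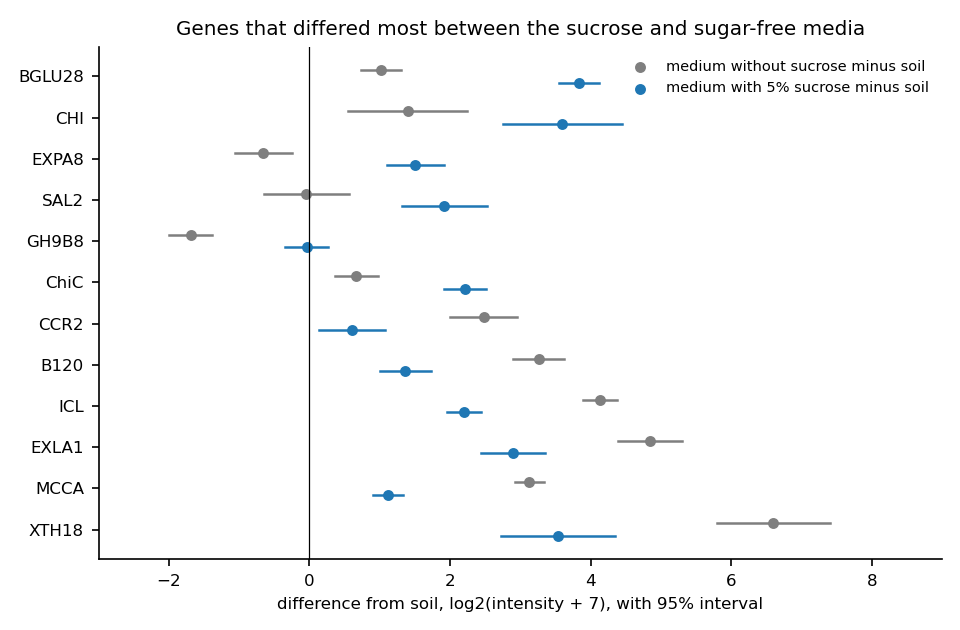
For the 6 genes highest and the 6 lowest in the sucrose medium relative to the sugar-free medium, points give the difference from soil in log2 after adding 7 with its 95% interval, in grey without sucrose and in blue with 5% sucrose. GH9B8 with sucrose sits at -0.04 with an interval that holds 0, XTH18 moves from 6.60 to 3.54, and EXPA8 from -0.66 to 1.5.

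DFR and UF3GT, both of anthocyanin synthesis, had the lowest differences from soil among the named genes with a symbol. Anthocyanins are made from flavonoids by dihydroflavonol reductase and then decorated with sugars and acids. DFR (AT5G42800), that reductase, read 627, 676 and 648 on soil and 25, 38.2 and 30.1 with sucrose, a difference of -4.12 ± 0.22 (adjusted p = 7.9e-12), or 17.4-fold lower. UF3GT (AT5G54060), which extends the sugar chain of anthocyanins, read 372, 343 and 333 against 17.9, 8.40 and 17.8, a difference of -4.07 ± 0.28 (adjusted p = 2.6e-10). AT5MAT (AT3G29590), which adds a malonyl group to them, read 129, 142 and 128 against 11.4, 11.8 and 13.4, a difference of -2.86 ± 0.19 (adjusted p = 2.4e-10). In each gene all soil arrays were many times above all sucrose arrays.

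On the sugar-free medium DFR was at 23.4, UF3GT at 12.5 and AT5MAT at 9.63 on average, and differences between the media, of 0.31, 0.14 and 0.22, were not called (adjusted p of 0.38, 0.80 and 0.51). The flavonol glycosyltransferases UGT78D1 and UGT78D2 were lower at -2.07 ± 0.13 and -1.79 ± 0.20. Of 8 measured genes from phenylalanine to flavonols and anthocyanins 4 were lower, namely DFR, UF3GT, UGT78D1 and UGT78D2, all at least 2-fold, with a median of -0.92, where 23.7% of all probe sets were lower and 4.62% at least 2-fold lower. CCR2 was higher and 3 were not called. AT5MAT is not a member of that list and is not in its count. HCT, an enzyme of lignin precursors early in the pathway, read 570, 561 and 584 on soil and 544, 585 and 579 with sucrose, with a difference of -0.01 and a 95% interval from -0.18 to 0.16.

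Probe sets known only by a locus reached still lower values. AT1G31690 read 414, 382 and 315 on soil and 2.29, 0.651 and 0.947 with sucrose in 1 probe set (-5.50 ± 0.21) and 687, 634 and 621 against 29.9, 25.4 and 27.9 in another (-4.24 ± 0.21). AT4G14090 read 325, 326 and 308 against 7.81, 5.87 and 5.38 (-4.62 ± 0.29, adjusted p = 6.9e-11). AT5G62210 was lower at -3.21 ± 0.22. The sugar-free values were low too, with differences from soil of -5.63, -4.91, -4.59 and -3.98 in the same order.

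Most chloroplast-encoded transcripts were lower on the sucrose medium. The chloroplast genome encodes core proteins of the photosystems, an RNA polymerase and part of the ribosome of the organelle. Of 35 photosynthesis genes of that genome 25 were lower (71.4%, beside 23.7% of all probe sets) and 1 higher (2.86%, beside 23.0%), with a median of -0.49. Of 24 genes for gene expression and other functions 20 were lower (83.3%) and none higher, with a median of -0.78, and of 10 ndh genes, for a complex akin to NADH dehydrogenase, 5 were lower and none higher, with a median of -0.33. With quantile normalization the counts were 16 lower and 2 higher of 35, 17 lower and none higher of 24, and 4 lower and 1 higher of 10.

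The largest differences in the group were those of rpoB and ndhH. The rpoB gene, for a subunit of the plastid RNA polymerase, read 951, 857 and 728 on soil and 50.2, 42.5 and 64.8 with sucrose, a difference of -3.85 ± 0.15 (adjusted p = 9.6e-14). The other measured subunits were lower by less: rpoC2 by -1.66 and rpoC1 by -0.78. The ndhH gene, for a subunit of the NADH dehydrogenase-like complex, read 1048, 824 and 780 against 118, 88.2 and 123, a difference of -2.94 ± 0.16 (adjusted p = 1.0e-11).

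Among photosystem genes psbB (ArthCp049), for the CP47 antenna protein of photosystem II, read 4284, 4466 and 4356 on soil and 674, 669 and 944 with sucrose, a difference of -2.53 ± 0.18 (adjusted p = 4.5e-10). The assembly factor ycf3 was lower at -2.23 ± 0.10, psbD by -1.44, the photosystem I core gene psaA by -1.32 and rbcL, the large subunit of the carbon-fixing enzyme Rubisco, by -0.60. The single gene above soil was psbA, for the D1 protein of photosystem II that is constantly replaced in light. It read 1385, 1224 and 1486 on soil and 2387, 2422 and 2299 with sucrose, a difference of 0.80 ± 0.13 (adjusted p = 3.1e-05). Between the media rpoB (-0.87), ycf3 (-0.58), ndhH (-0.58), psbD (-0.52) and rpl14 (-0.47) were lower with sucrose, and psbB (-0.45, adjusted p = 0.085) was not called.

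The ribosomal genes rps14 and rpl14 were lower than soil by -2.49 ± 0.21 and -1.89 ± 0.14. Members near the top of the intensity range depended on the normalization. The ATP synthase gene atpB read 4705, 5183 and 5481 on soil and 3779, 4053 and 3423 with sucrose (-0.45 ± 0.15, adjusted p = 0.021), and with quantile normalization its difference was -0.03 (adjusted p = 0.78).

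Nuclear genes of photosynthesis had 9 lower, 1 higher and 9 not called of 19, with a median of -0.22 (23.7% of all probe sets were lower), but 6 lower and 7 higher with quantile normalization, so no direction is given for the group. Single genes stood out from it. LHCB4.3 (AT2G40100), a minor light-harvesting protein of photosystem II, read 1383, 1306 and 1337 on soil and 302, 244 and 277 with sucrose, a difference of -2.27 ± 0.18 (adjusted p = 2.5e-09). Its close relative LHCB4.1 read 4221, 4724 and 4851 against 3717, 3750 and 3275 (-0.36 ± 0.12), a difference of -0.01 with quantile normalization (adjusted p = 0.96). CRR21, CRR28 and CRR41, named for their need in chlororespiration, were lower at -1.38, -0.87 and -0.87, and PGRL1B, a protein of cyclic electron flow, was higher by 0.47.

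Of 15 mitochondrial genes 7 were higher and 3 lower (20.0%), where 23.0% and 23.7% of all probe sets were, with a median of 0.33. The cytochrome oxidase gene cox1 read 61.5, 49.8 and 50.5 on soil and 142, 114 and 145 with sucrose (1.21 ± 0.12, adjusted p = 7.2e-08). The gene listed as ccb382, for cytochrome c maturation, was lower at -1.05. The 7 probe sets of nad1 disagreed in direction, from -0.54 to 0.86.

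**Figure D4:**
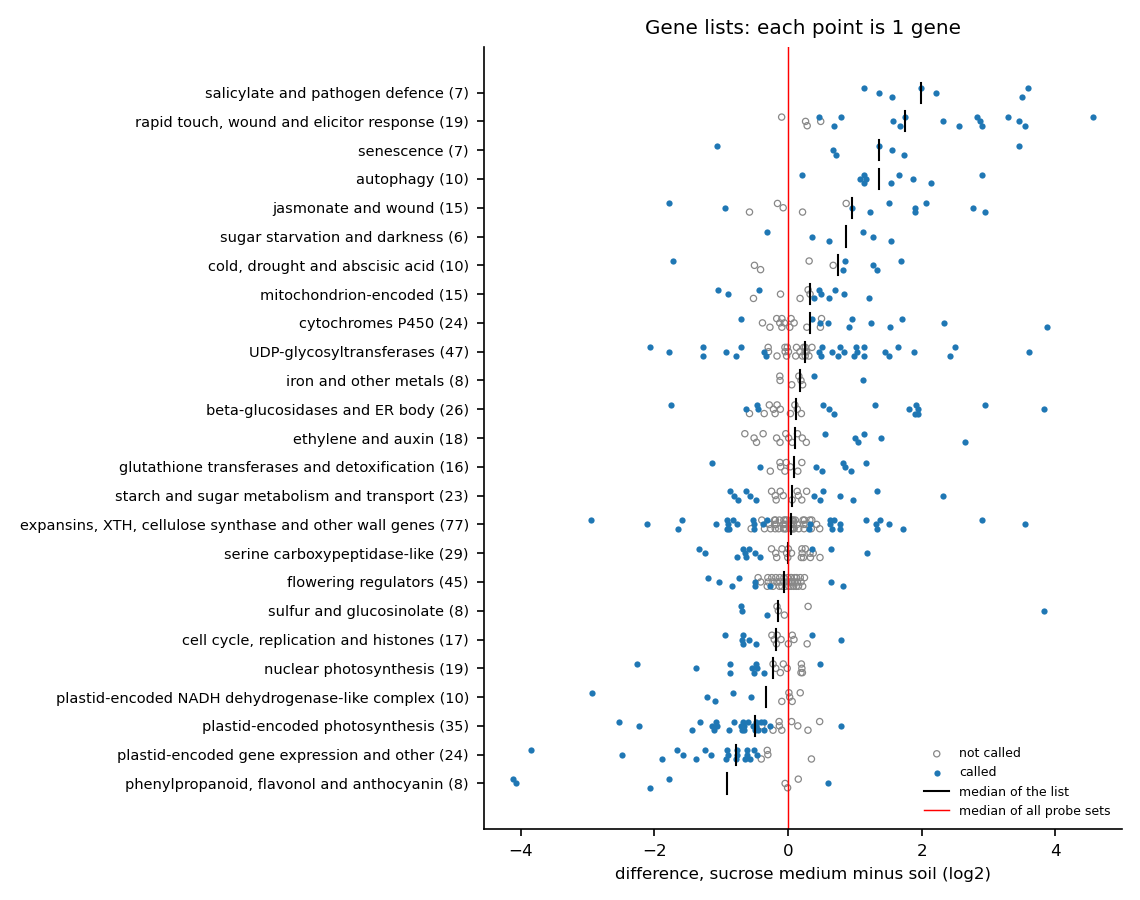
Each point is 1 gene of a list, placed at its difference between sucrose medium and soil in log2 after adding 7, filled where called, and black bars mark the median of each list beside the red line for all probe sets at -0.0023. Numbers in parentheses count the genes, and medians run from 1.99 for pathogen defence to -0.92 for the flavonoid and anthocyanin genes.

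The copper chaperone CCS (AT1G12520), which loads copper into superoxide dismutase, read 625, 627 and 631 on soil and 42.9, 50 and 73.3 with sucrose, a difference of -3.38 ± 0.23 (adjusted p = 3.3e-10). Without sugar it read 120, 118 and 114, so sucrose arrays were lower still (-1.02, adjusted p = 0.0033). Of 8 genes for iron and other metals 2 were higher, a share near the 23.0% of all probe sets, and none was lower. CCS is not a member of that list and is not in its count. BHLH101, a transcription factor of iron shortage, was higher by 1.13. Low values carry that difference, 15.9 on average against 3.88.

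Both nitrogen genes with a named probe set were higher, where 23.0% of all probe sets were. With 2 genes, no direction is given for the group. GAT1_2.1 (AT1G15040), an amidotransferase-like protein that responds to nitrogen supply, read 1.62, 1.51 and 1.77 on soil, 264, 250 and 235 without sugar and 80.9, 75.4 and 72.2 with sucrose, a difference from soil of 3.27 ± 0.10 (adjusted p = 6.0e-15). A second probe set of this gene differed by 0.72 and was not called (adjusted p = 0.079). NRT2.5 (AT1G12940), a nitrate carrier of starved plants, read 10.2, 13.5 and 14.1 on soil and 35.2, 34.3 and 36.8 with sucrose (1.12 ± 0.19, adjusted p = 6.4e-05). Without sugar it was at 11.4 on average and did not differ from soil by the test (-0.09, adjusted p = 0.74).

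Of 8 sulfur and glucosinolate genes 3 were lower (37.5%, beside 23.7% of all probe sets) and 1 higher (12.5%, beside 23.0%), with a median of -0.16. The higher gene was BGLU28, given above. BCAT4, which starts the synthesis of methionine-derived glucosinolates, and GTR2, which carries glucosinolates, were lower at -0.70 and -0.69.

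Of 10 cold, drought and abscisic acid genes 5 were higher and 1 lower, where 23.0% and 23.7% of all probe sets were, with a median of 0.75. COR47 (AT1G20440), a dehydrin, read 147, 164 and 160 on soil and 530, 532 and 506 with sucrose, a difference of 1.69 ± 0.11 (adjusted p = 1.3e-10), and 2.44 without sugar. COR27, a gene of cold and the clock, was higher by 1.34 ± 0.16 and RD2 by 0.85. COR15A (AT2G42540), a chloroplast protein that protects membranes from freezing, went the other way at 68.7, 80.1 and 80.3 on soil against 17.8, 22.6 and 14.7 with sucrose (-1.73 ± 0.17, adjusted p = 5.8e-08). Both clock genes with a named probe set were higher, where 23.0% of all probe sets were. GI was higher by 1.07 ± 0.13 and CCL by 1.06 ± 0.15, with 0.99 and 1.05 without sugar. The 2 heat shock genes were not called.

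Of 18 ethylene and auxin genes 6 were higher (33.3%, beside 23.0% of all probe sets) and none lower (beside 23.7%), with a median of 0.10, and with quantile normalization 2 were lower. WES1 (AT4G27260), also called GH3.5, which joins auxin to amino acids, read 37, 25.5 and 26 on soil and 229, 207 and 221 with sucrose, a difference of 2.64 ± 0.22 (adjusted p = 3.3e-09). Its relative GH3.3 was higher by 1.39 and IAA29, an auxin-response repressor, by 1.05. RTE1 and EIN3, of ethylene perception and response, were higher by 1.14 and 0.56.

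The cytokinin response regulator ARR15 was lower at -1.27. GID1B, a gibberellin receptor, was at 24.4 on average on soil, 125 without sugar and 37.0 with sucrose, so the sucrose arrays came near soil (0.50 ± 0.17, adjusted p = 0.020), and the call was lost in 5 settings. GID1A, another receptor, differed from soil by -0.04.

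Of 77 cell wall genes 16 were higher and 16 lower, 20.8% each way, near the shares over all probe sets (23.0% and 23.7%), with a median of 0.04. With quantile normalization 14 were higher and 19 lower, with a median of -0.05. These shares show nothing particular to the family, and only single genes are described. The lowest were TBL26, of a family that acetylates wall polymers, at 308, 275 and 304 on soil against 29, 34 and 33.3 with sucrose (-2.95 ± 0.34), and GH9C2, a cellulase-like enzyme, at 551, 590 and 523 against 120, 121 and 127 (-2.11 ± 0.12). GH9B13 and the mannan synthase CSLA01 followed at -1.64 and -1.59. Next to XTH18 and EXLA1, its neighbour in the family XTH19 was higher by 1.72.

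Of 17 cell cycle, replication, histone and tubulin genes 6 were lower (35.3%, beside 23.7% of all probe sets) and 2 higher (11.8%, beside 23.0%), with a median of -0.17. HTB1 (AT1G07790), a histone H2B, read 213, 234 and 245 on soil and 103, 128 and 118 with sucrose (-0.95 ± 0.13, adjusted p = 4.9e-06). HTB2 and the polymerase subunit POLD3 were each lower, at -0.68, and SIM, an inhibitor of cell division, was higher by 0.79 ± 0.12. In whole-tissue RNA, fewer cells of a type and less RNA per cell cannot be told apart.

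Of the 4 stomatal lineage genes 3 were lower, where 23.7% of all probe sets were. MUTE, which ends the divisions of stomatal precursors, read 12.2, 15.1 and 11.2 on soil and 7.26, 2.54 and 4.57 with sucrose (-0.77 ± 0.18, adjusted p = 0.0012). These values are near the floor. MUTE kept its call in all settings tried below, but with 28 added in place of 7 its difference was -0.32. SPCH, which starts the lineage, was lower at -0.62 ± 0.24 and STOMAGEN, a peptide that promotes it, by -0.27 ± 0.10, and leaving out single arrays ended these 2 calls. FMA, which acts in the last step, differed by 0.17, with a 95% interval from -0.04 to 0.37.

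Of 29 serine carboxypeptidase-like genes 9 were lower (31.0%, beside 23.7% of all probe sets) and 3 higher (10.3%, beside 23.0%), with a median of -0.0041. The gene scpl35 was at 513 on average on soil, 79.9 without sugar and 212 with sucrose (-1.24 ± 0.10 from soil), scpl46 was lower at -1.33 and SCPL34 higher by 1.19. Of 45 flowering regulators 7 were lower (15.6%) and 2 higher (4.44%), both below the shares over all probe sets (23.7% and 23.0%). Among the lower ones were SNZ, a repressor of flowering (-1.03), and LD, which promotes it (-0.83). Of the 2 wax genes 1 was higher and 1 lower, where 23.0% and 23.7% of all probe sets were. The lower one was WSD1, a wax ester synthase, at -0.95. Both genes were weak, with sums of 10.9 to 15.8 on the soil arrays. With 28 added in place of 7, WSD1 was at -0.38 and the other gene was not called.

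Markers were read to check the labelled tissue. The green tissue genes were abundant in both sets: RCA, which activates Rubisco, read 4387, 4817 and 5080 on soil and 3498, 3542 and 3168 with sucrose, and PORB, of chlorophyll synthesis, read 1274, 1392 and 1238 against 1058, 1192 and 1123. Of these 2 markers RCA was lower by the test (-0.48 ± 0.14, adjusted p = 0.0081) and not so with quantile normalization (-0.15, adjusted p = 0.080), and PORB was not called (-0.21). The 2 root hair markers with a probe set summed to 9.70 to 25.5 on soil and 27.6 to 36.4 with sucrose: EXPA18 was higher by 0.63 ± 0.23 (adjusted p = 0.030), a call lost in 5 settings, and EXPA7 was not called. The 2 seed and oil genes summed to 9.98 to 13.4 on soil, 121 to 156 without sugar and 37.0 to 52.9 with sucrose. ICL carried these differences, while OLEO3, an oil body protein, differed by 0.16 and was not called. Whether roots or stored oil had a part in the other differences was not tested.

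The other sets show where the soil seedlings stand in the series, as a description with no test, since the genes were chosen by the comparison above and the sets differ in stage. GAT1_2.1 was at 1.38 to 2.52 on the 9 whole-plant arrays from soil, as on the soil seedlings, and at 64.9 to 264 on all 12 arrays from medium. OSM34 (2.01 to 18.7 against 80.4 to 459) and SWEET16 (11.6 to 33.8 against 134 to 188) also separated the soil arrays from the medium arrays. Whole plants came from soil only, so for them stage and substrate cannot be told apart. DFR was at 31.5 to 73.9 on whole plants from soil and 11.3 to 38.2 on medium, against 627 to 676 on soil seedlings. UF3GT, AT5MAT and rpoB likewise were highest in soil seedlings, with whole-plant ranges of 17.2 to 40.9, 8.47 to 16.9 and 101 to 153.

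ATG8E was lowest in soil seedlings (34.5 to 40), between 84.1 and 221 in whole plants from soil, and between 288 and 577 on medium. STZ was at 39.3 to 625 in whole plants, where set 22 averaged 493 and sets 23 and 24 averaged 42.7 and 61.1. WRKY53 and CML38 were likewise highest in set 22 among the whole plants, with means of 265 and 269. JAL33 was at 1.41 to 24.2 in whole plants from soil, below the soil seedlings, and at 278 to 346 on the later medium sets. COR15A was higher in whole plants from soil, at 283 to 556, than in seedlings of any set.

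**Figure D5:**
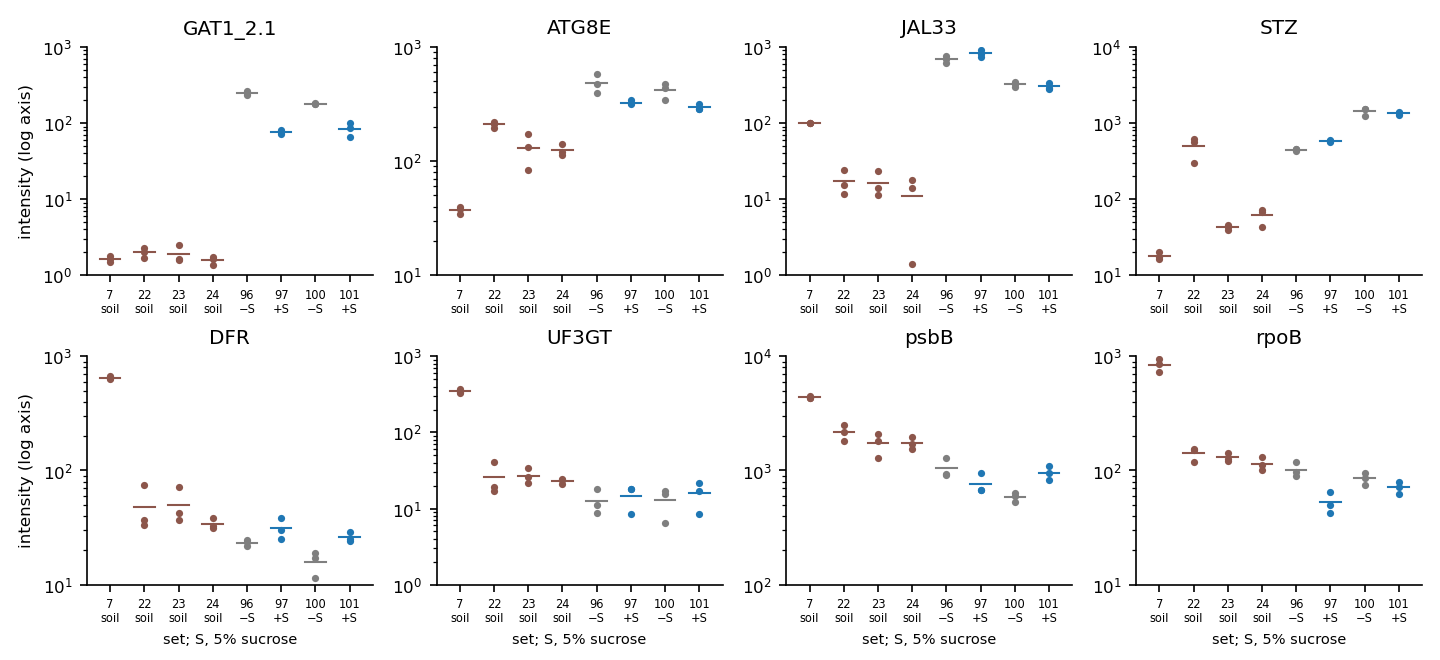
Points are the intensities of the 3 arrays of each of 8 sets on a log axis and bars their means, for 8 genes, with soil sets 7, 22, 23 and 24 in brown, the sugar-free sets in grey and the sucrose sets in blue. GAT1_2.1 separates all soil from all medium arrays (up to 2.52 against at least 64.9), whereas DFR and rpoB are high in the soil seedlings of set 7 only.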

How the data were processed

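Per the labels, total RNA of each sample was labelled with biotin and hybridised to a one-colour array. Per the submitters' processing notes the tool was MAS5, no version given. The deposited table holds the authors' linear intensity, 1 per probe set and array, with scaling not stated in these sources. Probe sets were named from the annotation supplied for the array: 13513 have 1 gene, 503 several and 8730 none here. Of the first, 1580 carry a symbol, and only these or their loci are named. Organelle genes were named by symbol.

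Values were taken as log2(intensity + 7). limma 3.58.1 in R 4.3.3 fitted 8 set means over all 24 arrays, with moderated variances, two-sided tests and Benjamini-Hochberg adjustment over 22746 probe sets. The number of arrays limits the precision. Checked on simulated data, with 50 probe sets changed per size among 22746, the sucrose against soil test recovered 40% of changes of 0.5, 78% of 1 and 100% of 2 on the log2 scale. The simulation changed far fewer probe sets than the 46.7% called here. Its adjustment for multiple tests was therefore stricter, and these shares do not measure the sensitivity of the real comparison.

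The text names the 14 highest and 14 lowest called differences with a symbol and no overlap of arrays, the 6 highest and 6 lowest between the media, up to 4 locus-only probe sets a side, and up to 6 genes of each list. Further list members were named after their values were seen: PUB22, PUB23, PUB24, WRKY6, WRKY22, PYK10, NAI2, ATG3, rpoC1, rbcL, TMT2, XTH19, and those given without a value. Members, lists and tests were chosen with earlier results of these data known, and 11 list entries whose symbol belongs to another protein were taken out. A gene with several probe sets is counted by the brightest. The lists for aquaporins, ribosomal proteins and flower markers had no named probe set. Replicate letters did not pair the arrays: deviations of same-letter arrays of sets 97 and 7 correlated at -0.055 to -0.007.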

Additional observations from a re-analysis of the deposited data

Results flagged for a closer look

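For 2 named genes the medium lay on opposite sides of soil with and without sucrose, and the difference between the media was itself called. EXPA8, the expansin, was above soil with sucrose (1.5) and below it without (-0.66), and the media differed by 2.16 (adjusted p = 1.6e-07). TUB1, the beta-tubulin, was above soil with sucrose (0.35) and below it without (-0.95), and the media differed by 1.31 (adjusted p = 9.0e-07). These comparisons share the soil arrays and the sucrose arrays.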

How the results depend on the processing

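Calls between sucrose medium and soil numbered 9460 to 10881 over 14 alternatives and 10623 as reported. Leaving out single arrays gave 9654 to 10041 and the replicate block 10610, with the letters not pairing the arrays. Counts past 2-fold depended on the added constant. With 28 in place of 7, 1189 were at least 2-fold higher and 574 lower than soil on sucrose medium, 1090 were lower on sugar-free medium, and 136 higher and 196 lower with sucrose between the media. With the smaller constant tried, 527 were higher between the media. With 28 the difference of XTH18 was 2.07 and that of GAT1_2.1 was 1.81. That of ICL was 0.98 with 28 and 3.58 with the smaller constant, and other weak genes moved as well. Of 171 called probe sets of named genes 159 kept call and direction under all 14 alternatives, and 12 lost the call in at least 1. The share of calls higher was 49.2%, and 43.0% with quantile normalization. Among genes not called, HCT was 0.0604 and PORB 0.0308 with quantile normalization, and over arrays left out HCT ranged from -0.0266 to 0.0255 and GH9B8 from -0.106 to 0.0177. Causes were not tested. Values below 7, 19.7 to 24.0% of probe sets per array of sets 7 and 97, carry little information on level.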
